A study of Mus musculus with 4 samples.

Results

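Messenger RNA of 8 transcription factors that are enriched in the liver, *Hnf4a*, *Foxa1*, *Foxa2*, *Foxa3*, *Cebpa*, *Onecut1*, *Onecut2* and *Prox1*, was examined in mouse liver with and without G9a in hepatocytes. The genes were listed by name, and each was taken at every probe set that the annotation of the array gave to that symbol alone. This gave 16 of the 34945 probe sets that named 1 gene, and 8 of 18193 genes. The samples were non-tumorous liver from 2 WT mice (*Alb-Cre*; *G9a*+/+) and 2 G9aΔHep mice (*Alb-Cre*; *G9a*flox/flox, labelled G9aKO), 1 array each. Both groups carried *Alb-Cre*, in which the albumin promoter drives Cre recombinase in hepatocytes, and the samples were of whole liver, which also holds cells outside that lineage. All mice were 30 weeks old males on a C57BL/6 background, had received 25 mg/kg of the carcinogen diethylnitrosamine (DEN) at day 15 and then 22 weekly injections of 0.5 ml/kg carbon tetrachloride (CCl4), a hepatotoxin. Both genotypes thus had repeated chemical injury of the liver, and untreated liver was not analysed here.

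These factors form the network that sets up and keeps hepatocyte identity. Foxa proteins are pioneer factors that open chromatin at liver enhancers, Hnf4a is an orphan nuclear receptor that drives genes of lipoprotein, bile acid and clotting factor production, and Cebpa is a basic leucine zipper factor of metabolic genes. The Onecut proteins act early in the liver and in the bile ducts, and Prox1 is a homeobox factor of hepatoblasts and hepatocytes that also specifies lymphatic endothelium. The factors bind one another's promoters. G9a, encoded by *Ehmt2*, places dimethylation on lysine 9 of histone H3, a repressive mark, and the comparison asked whether its loss in hepatocytes went with another level of these messages.

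Promoter sequences are shown for members whose start region held letters known as a binding motif of one of these families, since cross-binding among them is the basis on which they are read as a network. RefSeq windows of GRCm38.p6 covered 7 of the genes with 11 start sites, *Onecut2* not analysed here, and the 250 bases before each start were searched on both strands. The motifs were CAAAGTCCA for HNF4 (found in 0.384% of all 32851 windows), TGTTTAC or TGTTTGC for FOXA (7.29%), ATCAAT for HNF6, the protein of *Onecut1* (6.72%), and TTGCNNAA for CEBP (9.56%). No match of one motif overlapped a match of another in the members' windows. Of the 11 windows, 2 held the FOXA and 2 the HNF6 letters, and the HNF4 and CEBP letters were in none. *Hnf4a* (chromosome 2, 163506811 to 163572907) has 2 starts 40298 bases apart, of which the second, downstream one is known as the promoter of adult liver. The first start region had 1 HNF6 match, at 59 to 54 bases before the start. The count is from the start site of its RefSeq window, and that site lies 46 bases inside the annotated span of the gene. The 30 bases around the match (chr2:163506786-163506815, plus strand) are shown, and their last bases fall in that span. The outermost *Foxa2* start region, chr2:148046970-148047219 on the minus strand, had 1 HNF6 match, at 213 to 208 bases before the start. Capitals mark the matches, in either orientation, and each sequence runs 5′ to 3′ towards the start.
Hnf4a, first start region: gtgattagaagaATCAATaagataaccggg
Foxa2, outermost start: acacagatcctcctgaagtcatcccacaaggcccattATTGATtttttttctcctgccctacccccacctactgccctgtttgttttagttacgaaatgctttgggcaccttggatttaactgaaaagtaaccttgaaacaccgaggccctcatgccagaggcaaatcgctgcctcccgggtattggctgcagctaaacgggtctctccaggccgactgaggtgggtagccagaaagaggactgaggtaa

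FOXA letters lay before a start of *Foxa1* itself and of *Prox1*, and 30 bases around each are given, with the motif in capitals. The *Foxa1* stretch is chr12:57546234-57546263 and the *Prox1* stretch is chr1:190169617-190169646, both on the minus strand. Both lie inside the annotated spans of these genes given below, and the outermost *Prox1* start region had no match. A match is a description of the letters and was not tested as a binding site here. The genes lie on chromosome 12 (*Foxa1*, 57540628 to 57548029), chromosome 1 (*Prox1*, 190118035 to 190170827), chromosome 2 (*Foxa2*, 148042877 to 148046969), chromosome 7 (*Foxa3*, 19013283 to 19023539, and *Cebpa*, 35119293 to 35121928) and chromosome 9 (*Onecut1*, 74861921 to 74889648).
Foxa1: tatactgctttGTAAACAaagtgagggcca
Prox1: tatttgcttgcTGTTTGCatacctttcact

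The Affymetrix mouse expression arrays carried 45101 probe sets, groups of short probes for a transcript. Each had a MAS5 signal, a linear intensity that the authors had scaled on every array, and was called Present, Marginal or Absent. Between 41.3% and 43.9% of probe sets were Present on an array, and the 95% quantile of Absent signals was 171 to 181. The detected *Ehmt2* probe set was Present on both WT arrays (640 and 492) and Absent on both G9aΔHep arrays (174 and 164). Its signal in G9aΔHep liver was 0.301-fold that in WT (95% interval 0.204 to 0.443, adjusted p = 0.0612 from limma). Where this probe set lies with respect to the floxed exons was not looked up, so it checks the labels in part. *Alb*, encoding albumin, had signals of 69483 and 63618 in WT and 65622 and 57072 in G9aΔHep liver, and *Ttr*, encoding transthyretin, 78924 and 76419 against 85180 and 74280, all called Present. With whole liver, fewer cells of a type and less RNA per cell cannot be told apart. The smallest two-sided p of an exact permutation test on 2 against 2 arrays is 0.333, and the precision of every value is limited by having 4 arrays.

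None of the 8 factors passed the test between genotypes at any probe set. Of the 16 probe sets, 15 were Present on at least 2 arrays and were tested, and 0 of them had an adjusted p under 0.05 from limma, where 0.280% of all 17158 probe sets tested did (48, or 17 without the first WT array and 84 without the second G9aΔHep array). Their adjusted p ranged from 0.47 to 0.971. At an unadjusted p under 0.05, 4 of the 15 passed, namely *Hnf4a* at 2 probe sets in opposite directions, *Foxa3* and 1 of the *Onecut2* probe sets, against 9.31% of all probe sets tested. That count was 0 without the second WT array, 1 without the first G9aΔHep array, 3 without the first WT array, 1 with no trend in the fit, 1 over the brightest probe set of each gene and 0 with the methods' t-test. The log2 differences of the 15, G9aΔHep minus WT, ran from -0.37 to 0.71, with standard errors of 0.12 to 0.46. Their median was 0.29 and that of all probe sets tested was 0.02, with 12 above 0 and 3 below. The smallest difference of any probe set called on these arrays was 1.02 in size. The 95% intervals of the members reached from -0.82 at the low end to 1.42 at the high end, and at 10 of the 15 the interval lay within a 2-fold change in either direction.

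**Figure D1:**
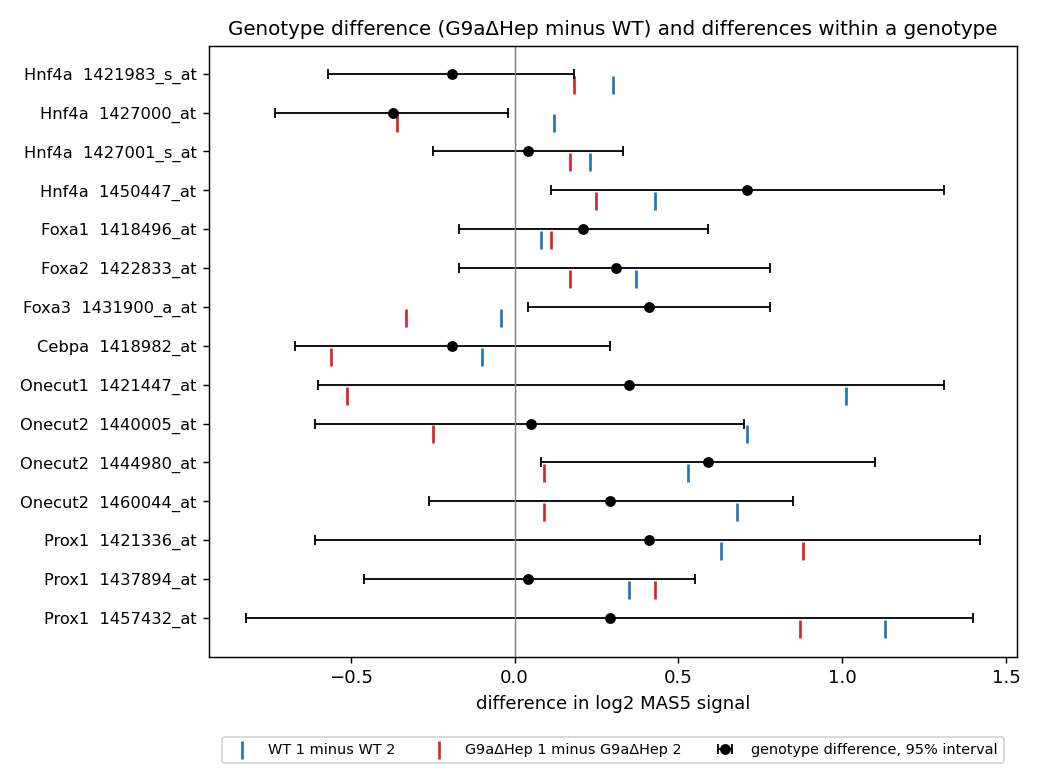
Points give the difference in log2 MAS5 signal, G9aΔHep minus WT, at each of the 15 tested probe sets, and bars the 95% interval from limma, not adjusted for the number of probe sets; blue and red ticks give the differences between the 2 WT and between the 2 G9aΔHep mice. The points lie between -0.37 and 0.71, and at 10 of the 15 probe sets the tick of 1 genotype or the other lies farther from 0 than the point.

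*Hnf4a* was measured at 4 probe sets, all Present on all arrays, and they differed in direction. At 1427001_s_at the signals were 22890 and 19571 in WT and 23070 and 20509 in G9aΔHep liver. The groups overlapped there and the log2 difference was 0.04 (SE 0.12, 95% interval -0.25 to 0.33), which turned to -0.07 without the second WT array and to -0.05 without the first G9aΔHep array. At 1427000_at the signals were 9134 and 8396 in WT and 5969 and 7641 in G9aΔHep liver, both lower than in WT, a log2 difference of -0.37 (SE 0.15, adjusted p = 0.523). At 1450447_at they were 262 and 194 in WT and 402 and 338 in G9aΔHep liver, both higher than in WT, a log2 difference of 0.71 (SE 0.25, adjusted p = 0.47). These are the lowest signals of the *Hnf4a* probe sets. On the WT arrays they lie near the Absent range, whose 95% quantile was 170.5 and 174.9 there. The last probe set, 1421983_s_at, had 3083 and 2512 in WT and 2591 and 2288 in G9aΔHep liver, with overlap and a log2 difference of -0.19 (SE 0.16, adjusted p = 0.743). Without the first G9aΔHep array the difference at 1427000_at was -0.20, and at 1421983_s_at it was -0.05 without the first WT array, -0.34 without the second and -0.10 without the second G9aΔHep array. The suffix _s_at marks probes that the array's design shares among more than one transcript. Which *Hnf4a* transcripts, and so which of the start regions shown above, each probe set reports was not determined here, and the difference between the probe sets was not tested.

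The Foxa factors all had higher means in G9aΔHep liver, and at the single probe set of each both G9aΔHep arrays lay above both WT arrays. *Foxa1* had signals of 834 and 788 in WT and 973 and 899 in G9aΔHep liver, a log2 difference of 0.21 (SE 0.16, adjusted p = 0.728). *Foxa2*, which also controls bile acid genes, had 700.0 and 540.1 in WT and 808 and 716 in G9aΔHep liver, a log2 difference of 0.31 (SE 0.20, adjusted p = 0.681). *Foxa3*, known as an abundant Foxa factor of adult liver, had 2379 and 2440.0 in WT and 2851 and 3587 in G9aΔHep liver, a log2 difference of 0.41 (SE 0.15, adjusted p = 0.494). The *Foxa3* arrays of WT liver were within 0.04 of each other on the log2 scale, those of G9aΔHep liver 0.33 apart. Without the second WT array the difference of *Foxa2* was 0.12, and without the second G9aΔHep array that of *Foxa3* was 0.24, and that of *Foxa2* was 0.49 without the first WT array. In fold terms the 95% intervals were 0.886 to 1.5 for *Foxa1*, 0.889 to 1.72 for *Foxa2* and 1.03 to 1.71 for *Foxa3*. Over the whole set, both G9aΔHep arrays lay above both WT arrays at 5 of 15 probe sets, the Foxa genes among them, and below at 1, where the shares of all probe sets tested were 21.7% and 19.4%.

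*Cebpa* had signals of 2420.0 and 2594 in WT and 1807 and 2671 in G9aΔHep liver. The G9aΔHep arrays held both the lowest and the highest value, and the log2 difference was -0.19 (SE 0.20, 95% interval -0.67 to 0.29, adjusted p = 0.799). Without the first G9aΔHep array it was 0.09.

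*Onecut1*, which encodes HNF6, varied more between the 2 WT mice than between genotypes. At the detected probe set the signals were 244 and 122 in WT and 185 and 262 in G9aΔHep liver, a log2 difference of 0.35 (SE 0.40, adjusted p = 0.811), whereas the WT mice differed by 1.01. The other *Onecut1* probe set had an Absent call on every array and was left untested. Its signals were 459 and 226 in WT and 251 and 312 in G9aΔHep liver. There the mean was higher in WT (342 against 281), whereas at the detected probe set it was lower in WT (183 against 224). *Onecut2*, its paralog, was Present at 3 probe sets on all arrays. At 1460044_at it had 1725 and 1081 in WT and 1726 and 1621 in G9aΔHep liver, a log2 difference of 0.29 (SE 0.23, adjusted p = 0.735). At 1444980_at it had 877 and 609 in WT and 1135 and 1066 in G9aΔHep liver, where both G9aΔHep arrays were above WT, by 0.59 (SE 0.21, adjusted p = 0.476). At 1440005_at it had 603 and 369 in WT and 448 and 532 in G9aΔHep liver, a log2 difference of 0.05 (SE 0.27, adjusted p = 0.971). The second WT mouse was the lowest at each of the 3. Without it the differences were -0.04, 0.33 and -0.31, and that of *Onecut1* was -0.15.

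*Prox1* differed more between the samples of a genotype than between genotypes. Its brightest probe set, 1437894_at, had signals of 1221 and 958 in WT and 1293 and 960.0 in G9aΔHep liver, a log2 difference of 0.04 (SE 0.21, 95% interval -0.46 to 0.55, adjusted p = 0.966). At 1421336_at the signals were 141 and 91.1 in WT and 204 and 111 in G9aΔHep liver, a log2 difference of 0.41 (SE 0.42, adjusted p = 0.795). At 1457432_at they were 262 and 120 in WT and 293 and 161 in G9aΔHep liver, with the second mouse of each genotype called Absent, a log2 difference of 0.29 (SE 0.46, adjusted p = 0.88). All 3 probe sets had the same order of mice, first G9aΔHep, first WT, second G9aΔHep and second WT, an order that 5.14% of all probe sets tested had. The first mouse exceeded the second by 0.35 to 1.13 in WT and by 0.43 to 0.88 in G9aΔHep liver on the log2 scale, more than the genotype difference of the same probe set in each case. Without the first G9aΔHep array the 3 differences were -0.17, -0.03 and -0.14, and without the second WT array -0.13, 0.09 and -0.27.

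**Figure D2:**
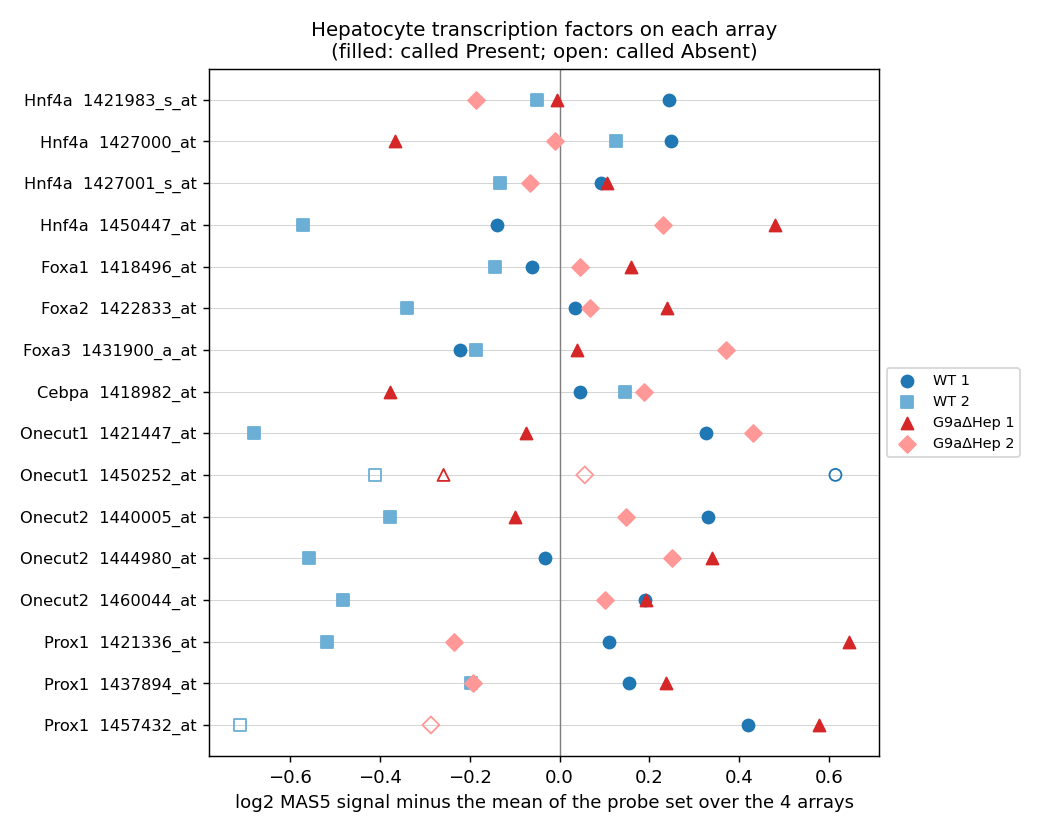
Each row is a probe set and each point an array, placed by its log2 MAS5 signal minus the mean of that probe set over the 4 arrays; blue points are WT mice, red points G9aΔHep mice, and open points were called Absent. The second WT mouse lies lowest at 11 of the 15 tested probe sets, and the first G9aΔHep mouse highest at 9.

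At 10 of the 15 tested probe sets the mice of 1 genotype or the other differed by more than the means of the genotypes did, as at 71.8% of all probe sets tested. The first WT mouse exceeded the second at 13 of the 15 tested probe sets, *Foxa3* and *Cebpa* being the exceptions, with a median difference of 0.37 on the log2 scale, where the median over all probe sets tested was 0.01 and 50.7% had the first mouse higher. The second WT mouse was the lowest of the 4 at 11 of 15 probe sets, against 25.8% of all. Several probe sets of 1 gene share their RNA, so these counts are over 8 genes and 4 mice. Between the G9aΔHep mice the first was higher at 10 of 15, with a median of 0.11, against 51.0% of all probe sets and a median of 0.01. Among the 32 liver transcription factors measured outside the members, *Dbp* and *Hhex* split the first from the second samples widely. Both are named after their values were seen. Not all of the 32 did so, and at *Cebpd* the first minus the second sample was -0.52 in WT and 0.66 in G9aΔHep liver on the log2 scale. *Dbp* had 423 and 6760 in WT and 614.5 and 7350 in G9aΔHep liver. *Hhex* went the other way, with 6544 and 1740 in WT and 4149 and 1971 in G9aΔHep liver. What set the first and second samples apart was not tested.

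Likeness between genes was measured over the 4 arrays as the root mean square difference of log2 signals centred on each gene's mean, with each gene at its brightest detected probe set, against the other members and 32 further liver factors. *Foxa2* and *Onecut2* were each other's nearest gene, 0.11 apart. *Onecut1* was nearest to *Onecut2*, at 0.24, and *Prox1* to *Hnf4a*, at 0.10. *Foxa1* was nearest to *Nr1h3*, which encodes the oxysterol receptor LXR alpha, at 0.07, *Foxa3* to *Nr1i3*, the xenobiotic receptor CAR, at 0.11, and *Hnf4a* to *Nr1i2*, the xenobiotic receptor PXR, at 0.09. *Cebpa* was nearest to *Nr2f2*, an orphan nuclear receptor, at 0.04, and 23 of 10349 genes were as near. For the others 125 to 898 genes were as near, so 4 arrays set few genes apart by this measure. A gene with equal signals on all 4 arrays would lie 0.10 from *Hnf4a* and 0.11 from *Foxa1*, against 0.09 and 0.07 for the nearest genes named.

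Other liver transcription factors, and the genes known as targets of these factors, held no call either. The lists were named from general knowledge, and a target is a gene known from other work to depend on the factor. They do not separate genes that a factor raises from genes that it lowers, so a median has no expected direction. Of 10350 genes tested, each at its brightest detected probe set, 0.386% had an adjusted p under 0.05 from limma, 10.3% had an unadjusted p under 0.05, the median log2 difference was 0.02 and 53.4% lay above 0. Of 32 measured liver factors outside the members, 0 passed in either direction (4 at an unadjusted p under 0.05), 13 lay above 0, and the median was -0.05 (-0.15 without the first WT array, 0.01 without the second, 0.03 without the first G9aΔHep array and -0.14 without the second). The smallest p among them was that of *Nr0b2*, the repressor SHP that bile acids induce, with 2513 and 2982 in WT and 1345 and 1652 in G9aΔHep liver, a log2 difference of -0.88 (SE 0.17, adjusted p = 0.155). *Nr1i3* followed, with 2439 and 2528 against 3203 and 3267, a log2 difference of 0.38 (SE 0.12, adjusted p = 0.421). The point farthest above 0 was *Foxq1*, a forkhead factor named after its values were seen, with 25.5 (Absent) and 140 in WT and 325 and 229 in G9aΔHep liver, a log2 difference of 2.19 (SE 0.76, adjusted p = 0.455). *Onecut3* was Absent on all arrays.

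Of 23 known *Hnf4a* targets 0 passed (4 at an unadjusted p under 0.05), 7 lay above 0 and the median was -0.08 (-0.05 without the first WT array, -0.16 without the first G9aΔHep array and -0.03 without the second). *Cyp8b1*, the sterol 12-alpha-hydroxylase that makes cholic acid, had signals of 12995 and 13482 in WT and 8663 and 4379 in G9aΔHep liver, a log2 difference of -1.10 (SE 0.29, adjusted p = 0.318). It passed without the first G9aΔHep array, at -1.60 (adjusted p = 0.014). *Cyp2d9*, a cytochrome P450 that is higher in males, had 48945 and 47992 against 39431 and 32919, a log2 difference of -0.43 (SE 0.11, adjusted p = 0.318). Both genes were lower on both G9aΔHep arrays than on both WT arrays. That held for 7 of the 23 targets, and 3 were higher on both. Of all probe sets tested, 19.4% were lower on both and 21.7% higher.

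The target lists, that of *Hnf4a* included, overlap, and some genes stand in more than one list. The 2 *Onecut* and *Prox1* targets with an unadjusted p under 0.05 from limma, *Cyp7a1* and *Cyp8b1*, are also among the 4 *Hnf4a* targets counted above. Of 10 *Foxa* targets 0 passed (3 at an unadjusted p under 0.05), with a median of -0.11 (0.0 without the second WT array) and 4 above 0. *Afp*, encoding alpha-fetoprotein, had 252 and 116 in WT and 3058 and 1159 in G9aΔHep liver, a log2 difference of 3.46 (SE 0.52, adjusted p = 0.0857), and it passed without the second G9aΔHep array, at 4.16 (adjusted p = 0.0166). *Cyp2c29*, another cytochrome P450, had 26913 and 17194 against 12590 and 13162, a log2 difference of -0.74 (SE 0.20, adjusted p = 0.347). These are the 2 extremes of the list, and *Afp* is also on that of fetal hepatocyte genes, where 0 of 4 measured genes passed, the median was -0.06 and *Aldoa* (-0.15) had the next smallest p. That median was -0.23 without the first WT array, 0.42 without the second, -0.03 without the first G9aΔHep array and 0.51 without the second. *Igfbp1*, named after its values were seen, passed without the second G9aΔHep array, at 1.88 (adjusted p = 0.0166). Of 12 *Cebpa* targets 0 passed (1 at an unadjusted p under 0.05), with a median of -0.04 (-0.09 without the first and -0.02 without the second G9aΔHep array) and 3 above 0. Among these *Cps1*, the first enzyme of the urea cycle, had a log2 difference of -0.23 (SE 0.09, adjusted p = 0.526). *Cdkn1a*, the cell cycle inhibitor p21, had 1504 and 680.0 in WT and 3821 and 1321 in G9aΔHep liver, with overlap and a log2 difference of 1.15 (SE 0.54, adjusted p = 0.571). Of 8 *Onecut* and *Prox1* targets 0 passed (2 at an unadjusted p under 0.05), with a median of -0.02 (0.01 without the first WT array, -0.04 without the second WT or the first G9aΔHep array) and 4 above 0, and *Hnf4a* and *Foxa2* are themselves on this list. *Cyp7a1*, the rate-limiting enzyme of bile acid synthesis, had 4471 and 5942 in WT and 2660.0 and 3740.0 in G9aΔHep liver, both below WT, a log2 difference of -0.71 (SE 0.21, adjusted p = 0.387).

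Markers of the cells that the samples could hold are given beside these values. Of 11 hepatocyte markers 2 lay above 0 and the median was -0.10, with a summed signal of 585088 to 629490 in WT and 540002 to 612272 in G9aΔHep liver. *Cps1* and *Asgr2*, an asialoglycoprotein receptor subunit (-0.57, adjusted p = 0.554), had the smallest p. The median was -0.05 without the first WT array, -0.18 without the second, -0.23 without the first G9aΔHep array and 0.02 without the second. Of 11 annotated cholangiocyte and progenitor markers, cells in which *Onecut1*, *Onecut2* and *Foxa2* are also expressed, 4 were tested. All 4 lay above 0, with a median of 1.24 (0.69 without the first G9aΔHep array) and a summed signal of 600 to 881 in WT and 1225 to 2581 in G9aΔHep liver. *Pkhd1* had a log2 difference of 1.96 and *Cd24a* of 1.71 (adjusted p = 0.155 and 0.264), *Krt23* and *Sctr* were Absent on all arrays, and *Krt7*, *Krt19*, *Cldn7* and *Cftr* were Present on the first G9aΔHep array alone, while each *Epcam* probe set was Present on 1 G9aΔHep array. *Cd24a* passed without the second G9aΔHep array, at 2.34 (adjusted p = 0.0239). For lymphatic endothelium, the other cell type of *Prox1*, 4 of 6 markers lay above 0, the median was 0.31 and the summed signal was 4199 to 5108 in WT and 4438 to 5493 in G9aΔHep liver. *Flt4*, a receptor of vascular endothelial growth factors, had a log2 difference of 0.71 (adjusted p = 0.194) and *Lyve1*, which sinusoidal endothelium also expresses, of -1.0 (adjusted p = 0.34). The median was -0.01 without the first WT array, 0.48 without the second, 0.01 without the first G9aΔHep array and 0.56 without the second. The part of these cells in the values of the factors was not tested.

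All 10 macrophage and Kupffer cell markers lay above 0, with a median of 0.53 (0.07 without the first WT array and 0.23 without the first G9aΔHep array) and a summed signal of 28173 to 42934 in WT and 40903 to 62934 in G9aΔHep liver. *Lyz2* and *Csf1r* had log2 differences of 0.88 and 0.60 (adjusted p = 0.492 and 0.545). All 10 stellate cell and fibroblast markers lay above 0, with a median of 0.45 (0.15 without the first and 0.76 without the second G9aΔHep array) and summed signals of 12189 to 17001 and 14303 to 22654; *Acta2* was at 1.10 and *Col1a2* at 0.80 (adjusted p = 0.21 and 0.547), and *Des* was Absent on all arrays. The 10 sinusoidal endothelial markers had a median of 0.12 (-0.01 without the second WT array and 0.18 to 0.21 without any other), 7 above 0, summed signals of 14645 to 18573 and 17322 to 17868, and no value beyond those of *Gpr182* (0.41) and *Cdh5* (0.40). The 3 tested lymphocyte markers lay below 0, with a median of -0.22 (0.18 without the first WT array, -0.63 without the second, and -0.34 and -0.02 without the first and second G9aΔHep array), *Cd8a* at -0.46 and *Cd79b* at -0.22, and summed signals of 310 to 560 and 327 to 387, while *Cd3e*, *Cd4* and *Cd79a* were Absent on all arrays. None of these markers passed with all arrays. *Marco*, a macrophage receptor, passed at 3.67 (adjusted p = 0.0281) when the second WT array was left out. *Col3a1*, a fibrillar collagen, passed at 2.03 (adjusted p = 0.0173) when the second G9aΔHep array was left out. Both are named after their values were seen.

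**Figure D3:**
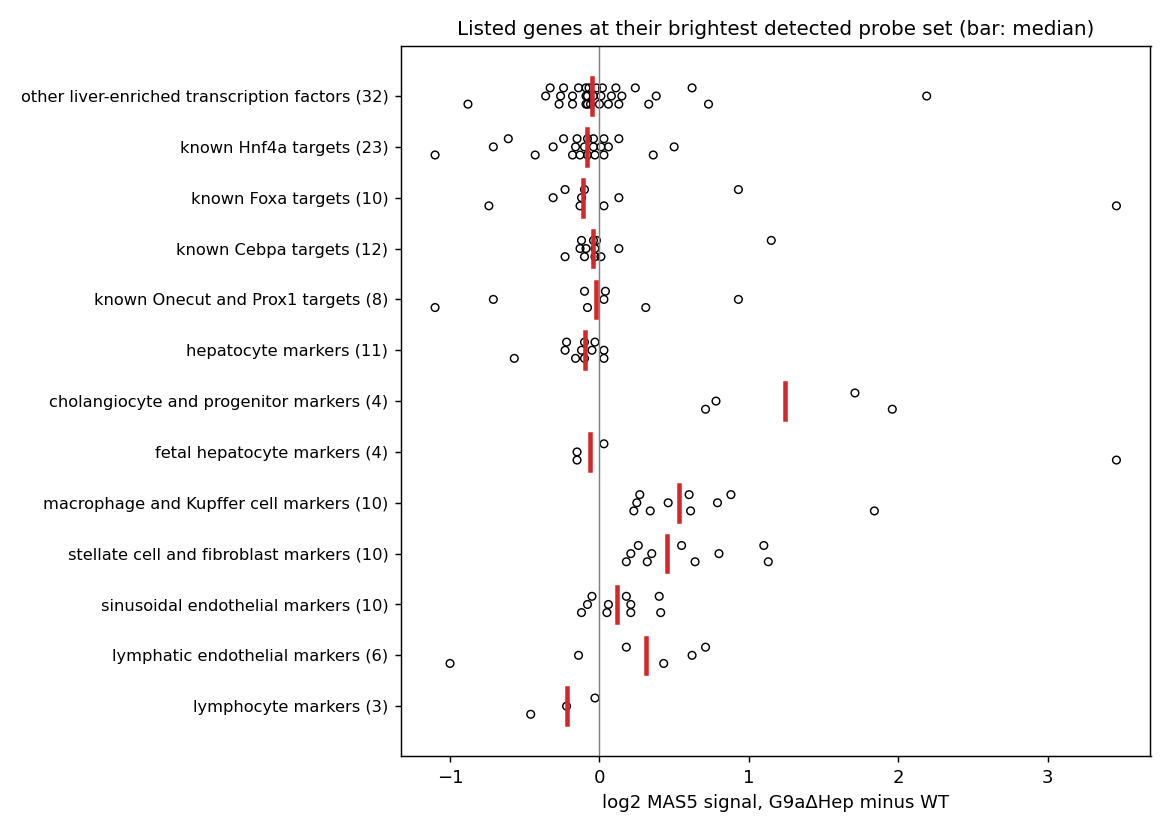
Each point is a gene at its brightest detected probe set, placed by its log2 MAS5 signal in G9aΔHep minus WT liver; rows are gene lists with the number of genes tested, and red bars are medians. The medians of the factor and target lists lie between -0.11 and -0.02, and the highest median is the 1.24 of the 4 cholangiocyte and progenitor markers.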

How the data were processed

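RNA of non-tumorous liver was hybridised to Affymetrix mouse expression arrays, 2 per genotype. The authors deposited MAS5 values, named in the submitters' processing notes without a version: a signal intensity, linear and scaled per array (2% trimmed mean of 500.0), and a detection p-value with its Present, Marginal or Absent call. The second deposited table, the series matrix, held the same intensity values (largest relative difference 5e-06). Samples were grouped by the genotype label. Nothing in the labels gives a batch, date or pairing, and first and second name the samples of a genotype in accession order. The study's methods give 2 for each genotype, and each sample is called a mouse here on that basis. The labels do not state separate animals, so p-values measure the spread between these samples.

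Of 45101 probe sets, 64 controls, 932 that name several genes and 9160 that name none were left out. A Present call on 2 or more arrays was required, which left 17158 probe sets, and their log2 signals were fitted with limma 3.58.1 (R 4.3.3, lmFit and eBayes with a trend, 2 residual and 4.6 prior degrees of freedom), with Benjamini-Hochberg adjustment over all of them and a threshold of 0.05. The script was tested on simulated data with a single spread and changes larger than those of the members. That test does not show how well changes of the members' size are found. Lists were described at each gene's brightest detected probe set, by counts and medians. The text names the members, *Ehmt2*, *Alb*, *Ttr* and, per list, the genes called or else the 2 with the smallest p. The members and lists were chosen with earlier results of these data known. Alternatives were 1 probe set per gene, other detection filters, no trend, median centring, quantile normalization, a pseudocount of 32, the test named in the study's methods, and leaving out each array.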

Additional observations from a re-analysis of the deposited data

How the results depend on the processing

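No member probe set passed the test under any of the 12 alternatives (the lowest adjusted p was 0.27), and 7 of the 15 kept their direction in all of them. Over all probe sets the count called was 48, against 30 with no detection filter, 0 with no trend (limma, 1483 at an unadjusted p under 0.05), 0 with the methods' t-test (1352 at an unadjusted p under 0.05), and 17 to 84 without 1 array. Listed genes called numbered 0, and 0 to 4 without 1 array. *Ehmt2*, at -1.73, passed with median centring (-1.79) and quantile normalization (-1.83). It did not pass with the other alternatives on all 4 arrays that tested it. Its adjusted p there ran from 0.0588 (limma, pseudocount 32) to 0.584 (the methods' t-test).

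With median centring the difference turned to -0.02 at *Hnf4a* 1427001_s_at and to -0.01 at *Onecut2* 1440005_at and *Prox1* 1437894_at, and quantile normalization turned *Onecut2* 1440005_at to -0.02. Centring moved the median of all probe sets from 0.02 to -0.04 and quantile normalization moved it to -0.01. Leaving out 1 array gave -0.07 to 0.15 at *Hnf4a* 1427001_s_at, -0.47 to 0.09 at *Cebpa*, -0.15 to 0.86 at *Onecut1* 1421447_at, -0.31 to 0.40 at *Onecut2* 1440005_at and -0.04 to 0.63 at *Onecut2* 1460044_at. It gave -0.03 to 0.85, -0.17 to 0.26 and -0.27 to 0.86 at *Prox1* 1421336_at, 1437894_at and 1457432_at. Without the second WT array 6 of the 15 turned direction, without the first G9aΔHep array 5. The cause was not tested. Of 52 list medians with 1 array left out, 12 moved by more than the spread between arrays. Of 104 list medians under the other alternatives 4 did.

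No paired analysis was possible because the labels give the arrays no replicate number and tie none to an array of the other genotype. Signals near the Absent range, as at *Onecut1*, *Prox1* 1421336_at and 1457432_at, limit the precision there.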
